A study of Homo sapiens with 12 samples.

Results

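The 3p strands of the let-7 family are the 10 entries of the deposited count tables named hsa-let-7a-3p, hsa-let-7a-2-3p, hsa-let-7b-3p, hsa-let-7d-3p, hsa-let-7e-3p, hsa-let-7f-1-3p, hsa-let-7f-2-3p, hsa-let-7g-3p, hsa-let-7i-3p and hsa-miR-98-3p, called below without the species prefix. They were taken by exact name from 1346 miRNA entries, by a rule that used no values. The list was nevertheless chosen with earlier results of these data known. Small RNA was measured in 12 libraries of HCT116 cells, a human colorectal carcinoma line, with AQ-seq, a protocol for small RNA that was built to lower ligation bias. The study behind the libraries determined how human DICER holds a precursor hairpin during cleavage. Every group carries a DICER rescue, wild type included, so no group is an unmodified HCT116 line.

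There were 6 groups of 2 libraries. They carried wild-type DICER (WT), R821E and R821A (arginine R821 replaced by glutamate or by alanine), ΔPAZ helix (by its name, without a helix of the PAZ domain), E5 and A5. The sources used here do not give the meaning of E5 and A5, the number of clones behind a rescue or its expression level. DICER messenger RNA and protein were not measured in these libraries, so the labels were not checked on the targeted gene. The labels do not tie the paired libraries to different cultures. All p-values therefore reflect the spread among these samples alone, which may be technical.

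Let-7 miRNAs restrain growth and developmental timing genes, and their precursors are cut from longer transcripts by DROSHA before DICER removes the loop. DICER releases a duplex whose 5p strand is the usual guide loaded into Argonaute, while the 3p strand is mostly the passenger that is discarded. Several loci make the same 5p strand but different 3p strands, so some 3p names tell loci apart that a 5p count merges. Most let-7 precursors (group II) leave DROSHA with a short overhang and receive a single uridine before dicing, whereas those of let-7a-2 and let-7e (group I) do not need it.

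Mature sequences were found in RefSeq (GRCh38.p14) for 9 of the 10 entries, all except let-7f-2-3p. They are shown because few bases separate the closest entries in the counting. Each runs 5′ to 3′, with the seed (bases 2 to 8) in capitals.
let-7a-3p: cUAUACAAucuacugucuuuc
let-7f-1-3p: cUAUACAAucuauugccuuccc
let-7b-3p: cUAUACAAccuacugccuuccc
miR-98-3p: cUAUACAAcuuacuacuuuccc
let-7a-2-3p: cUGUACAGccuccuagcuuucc
let-7g-3p: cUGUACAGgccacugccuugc
let-7d-3p: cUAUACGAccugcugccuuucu
let-7e-3p: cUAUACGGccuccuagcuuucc
let-7i-3p: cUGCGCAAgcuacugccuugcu

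The first 4 share the seed UAUACAA, let-7a-2-3p and let-7g-3p share UGUACAG, and let-7d-3p, let-7e-3p and let-7i-3p each have a seed of their own. All 9 sequences are distinct. Among these 9, the closest pairs base by base from the 5′ end were let-7b-3p with let-7f-1-3p and let-7a-2-3p with let-7e-3p. Each shared 20 of 22 bases (90.9%). The most distant pair of the 9 was let-7e-3p with let-7i-3p, at 50%. Let-7f-2-3p, without a sequence here, was not compared, so a pair that includes it may be closer than these. The sources used here do not say how reads that fit several entries were counted, so values of single members carry that uncertainty.

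Hairpins of the members on which the comparisons turn are shown in full, with both mature strands in capitals and the loop between them in lower case. The let-7a-1, let-7f-1 and let-7d hairpins lie within a few kilobases of each other on the plus strand of chromosome 9 (GRCh38), in an intron of the long non-coding gene AL158152.2 in GENCODE v29. The let-7i hairpin lies alone on the plus strand of chromosome 12, in an intron of the long non-coding gene AC048341.1.
let-7a-1, chr9:94175957-94176036: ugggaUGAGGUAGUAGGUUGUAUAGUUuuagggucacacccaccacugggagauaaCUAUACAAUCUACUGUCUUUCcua
let-7f-1, chr9:94176347-94176433: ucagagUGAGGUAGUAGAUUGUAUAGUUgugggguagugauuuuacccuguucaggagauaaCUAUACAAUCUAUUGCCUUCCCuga
let-7d, chr9:94178834-94178920: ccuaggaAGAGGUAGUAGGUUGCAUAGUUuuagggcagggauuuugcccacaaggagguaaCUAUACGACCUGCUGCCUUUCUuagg
let-7i, chr12:62603686-62603769: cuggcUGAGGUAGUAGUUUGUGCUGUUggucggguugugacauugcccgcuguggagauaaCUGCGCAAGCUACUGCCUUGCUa

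Between the strands lay 29 bases in let-7a-1, 34 in let-7f-1, 32 in let-7d and 34 in let-7i. The shortest such stretches, 23 bases each, belonged to let-7a-2 (chromosome 11, an intron of MIR100HG) and let-7e (chromosome 19, an intron of SPACA6). Let-7a-3p is made by 2 hairpins, let-7a-1 and let-7a-3. The let-7a-3 hairpin, with 26 bases between its strands, and the let-7b hairpin, with 32, lie in an exon of MIRLET7BHG on chromosome 22. The let-7g hairpin (35 bases) lies in an intron of WDR82 on chromosome 3, and miR-98 (36 bases) and let-7f-2 lie in an intron of HUWE1 on the X chromosome.

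Libraries held 144067 to 255296 miRNA counts, at which 3 counts correspond to 11.8 to 20.8 CPM (counts scaled to library size), a limit for counting error only. Amplified reads carry no molecular identifiers, so they are not separate molecules. R821E libraries stood apart, with TMM factors of 0.714 and 0.804 against 0.990 to 1.15 elsewhere, and their miRNA total per count of spike-in RNA was 14.3 ± 1.38, against 24.2 ± 2.49 in WT (SD, n = 2). Values are therefore given on a TMM scale, relative to the bulk of other miRNAs, and on a spike-in scale, relative to the added spike-in RNAs. Less miRNA per cell and fewer cells behind the RNA cannot be told apart on the latter. WT replicates differed most (chi-square per degree of freedom 31.2, against 4.43 to 18.2 in the mutants), while 1 estimate of the spread served all groups in edgeR. All 7 epithelial marker miRNAs were detected (942 to 2959 CPM summed, lowest in R821E), and markers of muscle and liver reached at most 2 counts. Leukocyte markers summed to 125 to 537 CPM, fibroblast and endothelial ones to 244 to 1131, both lowest in R821E, neuronal ones to 526 to 972 and erythroid ones to 142 to 305. Their part in the results was not tested.

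The 10 members together held 390 to 687 counts per library, which was 0.238% ± 0.0558 of miRNA counts in WT and 0.272% ± 0.0284 in R821E (SD, n = 2). Over all libraries let-7a-3p supplied 33.4% of the members' counts. Let-7f-2-3p, let-7b-3p and let-7i-3p followed with 13.8%, 12.9% and 12.6%. miR-98-3p, let-7a-2-3p and let-7e-3p had 97, 88 and 85 counts in all and supplied under 1.65% each. All 10 members passed the filter on low counts, but let-7a-2-3p and miR-98-3p through 3 libraries and let-7e-3p through 4. The other 7 were over its cutoff of 44.3 CPM in all 12.

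In WT the members stood in 3 tiers whose library values did not overlap. Let-7a-3p (587 ± 232 CPM on the TMM scale, SD, n = 2) and let-7i-3p (452 ± 13.2) were highest and overlapped each other. Let-7d-3p (286 ± 119), let-7b-3p (228 ± 141) and let-7f-2-3p (227 ± 51.3) came next with let-7g-3p (141 ± 37.8) and let-7f-1-3p (141 ± 76.3). Both of the last pair were below let-7d-3p and let-7f-2-3p in each WT library. miR-98-3p, let-7e-3p and let-7a-2-3p were lowest, at 43.3 ± 7.35, 37.3 ± 25.7 and 33.3 ± 17.7. In R821E the order was different: let-7a-3p (1577 ± 53.8) was clear of let-7f-2-3p (584 ± 20.1) and let-7b-3p (580 ± 120), while let-7i-3p (133 ± 32.2) came sixth, with both libraries below those of let-7g-3p (236 ± 32.1).

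**Figure D1:**
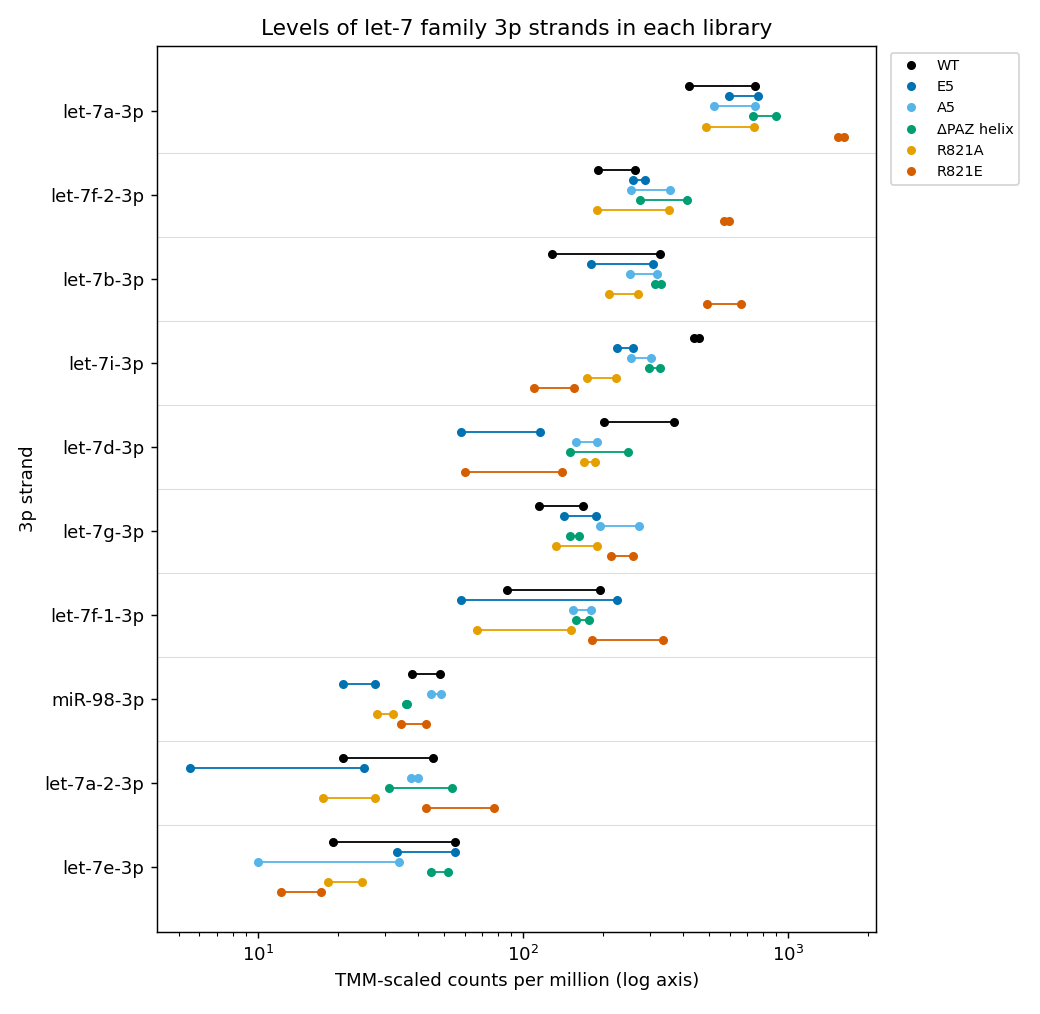
TMM-scaled CPM (log axis) of the 10 let-7 family 3p strands in each of the 12 libraries. Points are libraries, lines join the 2 libraries of a DICER group, and members are ordered by their total counts. The R821E points lie to the right of the WT points for let-7a-3p, let-7f-2-3p, let-7b-3p and let-7g-3p, and to their left for let-7i-3p, let-7d-3p and let-7e-3p.

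R821E against WT split the family. Relative to other miRNAs, 3 members were called higher (let-7a-3p, let-7b-3p and let-7f-2-3p) and 2 lower (let-7i-3p and let-7d-3p) by edgeR's quasi-likelihood test at an adjusted p under 0.05. Of the 374 tested entries, 47.9% were called in this comparison, 23.8% higher and 24.1% lower, so the members' counts are near the background. None of the 3 was called higher on the spike-in scale. That scale lowered the median of all tested entries from -0.10 to -1.38 log2 units, and on it the 3 had values of 0.03 to 0.12 while let-7i-3p and let-7d-3p were again called lower.

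Let-7a-3p, the 3p strand of the let-7a-1 and let-7a-3 hairpins, was counted 122 and 197 times in WT and 252 and 187 times in R821E. That corresponds to 423 and 752 CPM in WT and 1539 and 1615 CPM in R821E on the TMM scale. Both R821E libraries lay above every other library of the series. The log2 fold change was 1.43 ± 0.29 (SE, adjusted p = 0.00152, edgeR), against 0.12 on the spike-in scale (adjusted p = 0.788).

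Let-7f-2-3p, from the HUWE1 intron, was at 191 and 263 CPM in WT and 599 and 570 CPM in R821E. Let-7b-3p, whose hairpin is a neighbour of let-7a-3 in MIRLET7BHG, was at 128 and 328 CPM in WT and 495 and 665 CPM in R821E. For both members the R821E libraries were above all 10 others. The log2 fold changes were 1.37 ± 0.32 for let-7f-2-3p (adjusted p = 0.00372, edgeR) and 1.34 ± 0.38 for let-7b-3p (adjusted p = 0.00946). Against the spike-ins they were 0.07 and 0.03 (adjusted p = 0.885 and 0.958). The let-7b-3p call was lost without WT replicate 1, whose level was the lowest of the 12 (0.82, adjusted p = 0.0625), without R821E replicate 2 (1.12, adjusted p = 0.0854) and with scaling to total counts (0.82, adjusted p = 0.0721).

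Let-7i-3p moved the other way. It was counted 133 and 116 times in WT and 18 times in each R821E library, or 461 and 443 CPM against 110 and 155 CPM on the TMM scale. WT was the highest group and R821E the lowest, with the other 4 mutants between them (175 to 327 CPM) and no overlap with either. The log2 fold change in R821E was -1.79 ± 0.27 (adjusted p = 2.00e-04, edgeR) and -3.08 on the spike-in scale (adjusted p = 4.26e-07). It was called lower under all 15 alternative analyses, with values from -3.08 to -1.54.

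Let-7d-3p, the third hairpin of the chromosome 9 cluster, was at 201 and 370 CPM in WT and 140 and 60.5 CPM in R821E, from 58 and 97 counts against 23 and 7. The groups did not overlap. The log2 fold change was -1.44 ± 0.44 (adjusted p = 0.0152, edgeR) and -2.74 on the spike-in scale. The call was lost without WT replicate 2 (-0.99, adjusted p = 0.0880) or without R821E replicate 2 (-1.02, adjusted p = 0.134).

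The other 5 members were not called on the TMM scale in R821E. Let-7g-3p was at 114 and 168 CPM in WT and 214 and 259 CPM in R821E, groups that did not overlap, with a log2 fold change of 0.74 ± 0.32 (adjusted p = 0.0682, edgeR). Let-7f-1-3p (0.92 ± 0.59), let-7a-2-3p (0.81 ± 0.59) and miR-98-3p (-0.15 ± 0.46) overlapped WT. The values of let-7g-3p, let-7f-1-3p and let-7a-2-3p were below 0 on the spike-in scale, at -0.56, -0.39 and -0.47, with no call. Let-7e-3p had 4 counts over both R821E libraries and 21 over both WT libraries, a TMM-scaled ratio of 0.375 with a 95% exact interval of 0.0936 to 1.11 for counting error. Let-7e-3p (adjusted p = 0.00741) and miR-98-3p (-1.42, adjusted p = 0.0140) were called lower as well on the spike-in scale, where 60.7% of entries were called, 60.4% lower.

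As a set, the members' median log2 fold change in R821E was 0.77 on the TMM scale, against -0.10 over all 374 entries and -0.58 over the 148 tested 3p entries. The medians on the spike-in scale were -0.52, -1.38 and -1.88. Of the 148 tested 3p entries, 18 were called higher and 56 lower on the TMM scale, against 3 and 2 of the 10 members. Of the members, 4 lay above WT in both libraries, 3 below and 3 overlapped, while 130 of the 374 entries lay above and 149 below. The 3 called higher and 2 called lower were all among the 8 group II members. Neither group I member, let-7a-2-3p or let-7e-3p, was called on the TMM scale, and both had few counts.

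**Figure D2:**
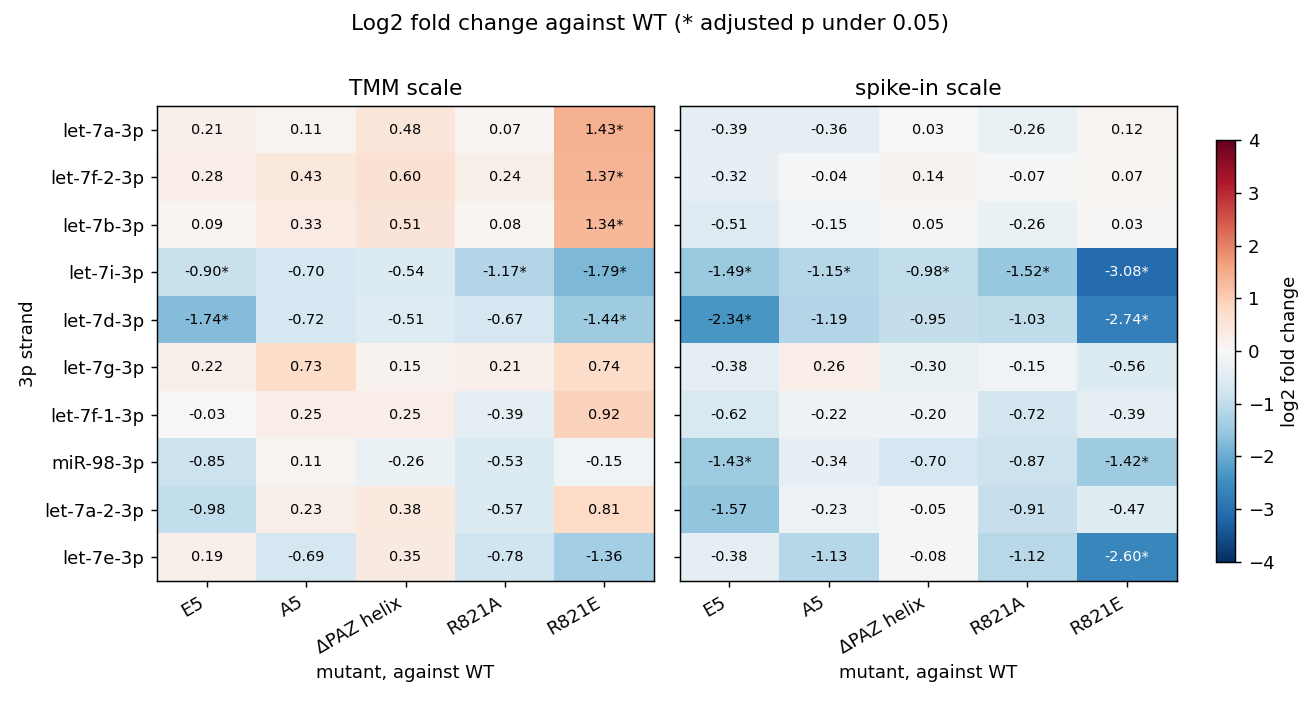
Log2 fold change of each member against WT in the 5 mutants on the TMM scale (left) and the spike-in scale (right). Colour and number give the fold change, and a star marks an adjusted p under 0.05 (edgeR). Let-7i-3p and let-7d-3p are negative in every mutant on both scales. Let-7a-3p, let-7f-2-3p and let-7b-3p are called in R821E on the TMM scale only. All 5 comparisons share the WT libraries. The value of let-7e-3p in R821E rests on 4 counts.

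Set against each other, glutamate and alanine at R821 gave different levels for many miRNA entries. On the TMM scale the members' count of calls was near the share over all entries. In R821E against R821A, let-7a-3p (1.36 ± 0.29, adjusted p = 0.00279, edgeR), let-7b-3p (1.27 ± 0.38, adjusted p = 0.0175) and let-7f-2-3p (1.12 ± 0.32, adjusted p = 0.0137) were called higher in R821E and no member lower, where 41.4% of all entries were called, 21.9% higher and 19.5% lower. R821A levels were 491 and 744 CPM for let-7a-3p, 210 and 271 CPM for let-7b-3p and 189 and 354 CPM for let-7f-2-3p. All lay below the R821E libraries. The groups did not overlap for any of the 10 members (7 above, 3 below), compared with 138 above and 143 below among the 374 entries. On the spike-in scale none of the 3 was called (0.38, 0.30 and 0.14), while let-7d-3p (-1.71) and let-7i-3p (-1.56) were called lower in R821E, where 49.2% of entries were called, 48.9% lower.

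Calls for 2 of these members depended on single libraries and on the scaling. Scaled to total counts, let-7b-3p (0.76, adjusted p = 0.113) and let-7f-2-3p (0.61, adjusted p = 0.131) were not called (edgeR). The members called with that scaling were 1 higher, let-7a-3p, and 2 lower, let-7d-3p and let-7i-3p. Of all 374 entries, 19 were called higher and 132 lower with it. Without R821A replicate 1 the values were 1.08 for let-7b-3p (adjusted p = 0.107) and 0.71 for let-7f-2-3p (adjusted p = 0.130, edgeR). Without R821E replicate 2 they were 1.05 (adjusted p = 0.115) and 1.16 (adjusted p = 0.0524). The let-7f-2-3p call was also lost without R821E replicate 1 (1.09, adjusted p = 0.0732).

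In R821A against WT, let-7i-3p was the 1 member called, where 3.21% of entries were called, 2.94% lower. Its R821A libraries held 64 and 38 counts, or 224 and 175 CPM, below the WT values of 461 and 443 CPM. The log2 fold change was -1.17 ± 0.24 (adjusted p = 0.00913, edgeR) and -1.52 on the spike-in scale (adjusted p = 8.52e-04), where it was again the 1 member called and 4.28% of entries were called, all lower. The call was lost without R821A replicate 1 (-1.38, adjusted p = 0.0688) or replicate 2 (-1.01, adjusted p = 0.115). The other 9 members had log2 fold changes from -0.78 (let-7e-3p) to 0.24 (let-7f-2-3p), and let-7d-3p, at 186 and 170 CPM, lay below both WT libraries without being called (-0.67 ± 0.38, adjusted p = 0.586).

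In E5 against WT, let-7d-3p and let-7i-3p were called lower and no member higher, where 9.09% of entries were called, 2.41% higher and 6.68% lower. Let-7d-3p had 21 and 14 counts in E5, or 116 and 58.4 CPM against 201 and 370 CPM in WT. Its log2 fold change was -1.74 ± 0.43 (adjusted p = 0.0266, edgeR). Let-7i-3p had 47 and 54 counts, or 259 and 225 CPM, and a log2 fold change of -0.90 ± 0.24 (adjusted p = 0.0320). Neither member overlapped WT. On the spike-in scale both were lower (-2.34 and -1.49), as was miR-98-3p (-1.43), where 27.3% of entries were called.

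Both E5 calls were sensitive to single libraries. The let-7d-3p value was -1.28 without WT replicate 2 (adjusted p = 0.120, edgeR) and -1.30 without E5 replicate 2 (adjusted p = 0.184). Let-7i-3p lost its call when any 1 of the 4 libraries was left out, with adjusted p from 0.0650 (-0.97, without WT replicate 2) to 0.186 (-0.81, without E5 replicate 2), and its adjusted p was 0.0543 with the replicate number as a block. The median of the members was 0.03 in E5, the same as over all entries.

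No member was called in A5 or ΔPAZ helix against WT, where 0.267% of entries were called in each. For A5, 2 members and 52 of the 374 entries had an unadjusted p under 0.05 (edgeR), and DESeq2 and limma-voom called 0 members. For ΔPAZ helix, 1 member and 44 entries had such a p, and DESeq2 and limma-voom again called 0 members. One of the A5 pair, let-7g-3p, was at 274 and 196 CPM, both above WT (114 and 168 CPM), with a log2 fold change of 0.73 ± 0.30 on the TMM scale (adjusted p = 0.266, edgeR) and 0.26 on the spike-in scale. The other was let-7i-3p. Let-7i-3p had the lowest TMM value relative to WT in ΔPAZ helix (297 and 327 CPM, -0.54), and in A5 it was at 304 and 256 CPM (-0.70). Neither group overlapped WT. On the spike-in scale let-7i-3p was called lower in both, by edgeR, at -1.15 in A5 (14.7% of entries called) and -0.98 in ΔPAZ helix (13.1%). E5 and A5 set against each other gave 0 calls by edgeR, DESeq2 and limma-voom among the members and 0% over all entries by edgeR, with 1 member and 36 entries at an unadjusted p under 0.05.

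The 5p guide strands of the same family were mostly lower in R821E, and not in R821E alone. Of 9 tested 5p strands, 6 were called lower and 0 higher in R821E on the TMM scale, with a median of -0.86, where 24.1% of all entries were called lower. DESeq2 size factors gave 5. All 9 were called lower on the spike-in scale, where 60.4% of entries were. In R821A 6 were called lower on the TMM scale (median -0.90), where 2.94% of entries were. In E5 it was 5 (median -0.64), where 6.68% were, and in A5 and ΔPAZ helix 0. On the spike-in scale 6 were called lower in R821A, 7 in E5, 6 in A5 and 4 in ΔPAZ helix. The shares of all entries there were 4.28%, 27.3%, 14.7% and 13.1%. Let-7b-5p differed from the rest on the TMM scale in that both R821E libraries lay above both WT libraries (0.27 ± 0.15, adjusted p = 0.160, edgeR). It was called higher in R821E than in R821A (0.50 ± 0.15, adjusted p = 0.0208, edgeR), where miR-98-5p had a larger value without a call (0.77). Scaled to total counts or to the upper quartile of counts, 0 of the 5p strands were called higher there. On the spike-in scale the 2 let-7b-5p values were -1.03 and -0.47. Let-7a-5p was lower in R821E (-0.44 ± 0.17, adjusted p = 0.0422, edgeR), as was let-7f-5p (-0.86 ± 0.17, adjusted p = 0.00137), while their 3p partners let-7a-3p and let-7f-2-3p were called higher. Let-7i-5p (-1.02 ± 0.14, adjusted p = 1.16e-04) and let-7d-5p (-1.66 ± 0.28, adjusted p = 4.54e-04) were lower together with their 3p partners.

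Strand ratios need no scaling between libraries, since both strands come from the same library. Counts of 3p over 5p were tested with limma for 70 hairpin names that averaged 20 or more counts in each strand, of which 6 were let-7 names. Let-7e and miR-98 had too few 3p counts. For let-7a and let-7f the 3p members were summed, because their loci share a 5p strand.

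In R821E, 4 of the 6 let-7 names shifted toward the 3p strand and 0 toward 5p, whereas 18.6% of all 70 hairpins shifted toward 3p and 38.6% toward 5p. The median log2 shift was 1.17 for let-7 and -0.50 for the 64 other hairpins. The 3p share of let-7a was 6.26% and 8.08% in the WT libraries and 20.4% and 24.0% in R821E, a log2 shift of 1.89 ± 0.23 (SE, adjusted p = 9.72e-06, limma). For let-7f it was 8.21% and 9.88% in WT and 30.6% and 28.6% in R821E, a shift of 2.08 ± 0.30 (adjusted p = 3.54e-05). In both, every R821E library exceeded all 10 others. These 2 shifts were called under all 11 alternatives.

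The let-7b and let-7g shifts in R821E were smaller. The 3p share of let-7b was 4.48% and 8.86% in WT and 11.9% and 15.1% in R821E (shift 1.20 ± 0.33, adjusted p = 0.00744, limma). That of let-7g was 4.58% and 6.62% in WT and 8.43% and 15.2% in R821E (1.14 ± 0.40, adjusted p = 0.0222). Neither overlapped WT, but both calls were lost without WT replicate 1 (let-7b 0.68, adjusted p = 0.110; let-7g 0.86, adjusted p = 0.153) and without R821E replicate 2 (let-7b 1.00, adjusted p = 0.0749; let-7g 0.66, adjusted p = 0.251).

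Let-7i and let-7d were the names that did not shift toward 3p in R821E. The 3p share of let-7i was 7.95% and 6.18% in WT and 3.77% and 4.74% in R821E, the lowest of the 12 libraries (shift -0.74 ± 0.31, adjusted p = 0.0508, limma). That of let-7d was 13.5% and 13.1% in WT and 17.3% and 10.8% in R821E, groups that overlapped (0.10 ± 0.40, adjusted p = 0.878). Over the 8 hairpin names together the 3p share was 7.51% ± 0.676 in WT and 17.0% ± 1.10 in R821E (SD, n = 2). The means of the other mutants were 9.64% (E5), 9.61% (A5), 9.55% (ΔPAZ helix) and 10.5% (R821A).

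**Figure D3:**
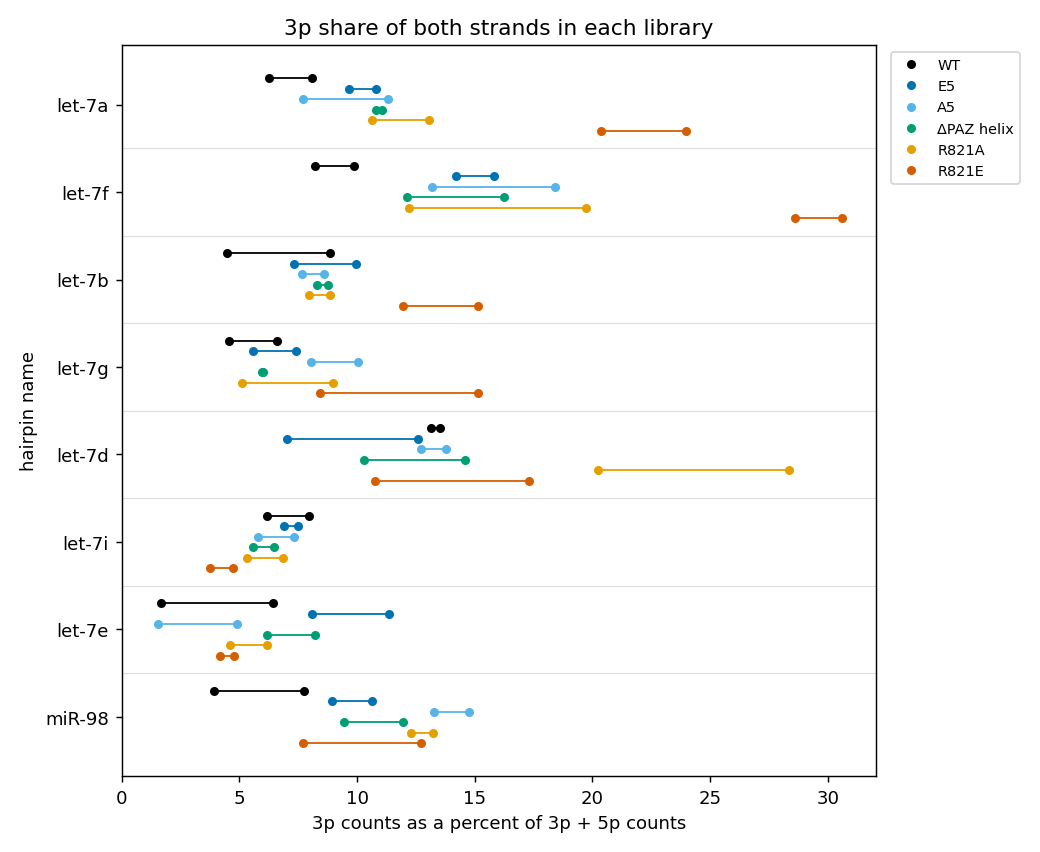
The 3p counts of each hairpin name as a percentage of its 3p and 5p counts, per library. Points are libraries and lines join the 2 libraries of a group. R821E stands at 20.4% and 24.0% for let-7a and at 30.6% and 28.6% for let-7f, to the right of all other groups, and at 3.77% and 4.74% for let-7i, to their left. Let-7e and miR-98, with few counts, were not tested.

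Other mutants showed smaller strand shifts. In R821A let-7a was called (10.6% and 13.1% 3p, shift 0.80 ± 0.23, adjusted p = 0.0480, limma), where 7.14% of hairpins were called. The call was lost in 8 of 11 alternatives, among them without WT replicate 1 (0.61, adjusted p = 0.282), without R821A replicate 1 (0.97, adjusted p = 0.0646), without R821A replicate 2 (0.64, adjusted p = 0.327), and with the replicate block (adjusted p = 0.0748). The 3p share of let-7d was highest in R821A, at 28.3% and 20.2%, above all 10 other libraries. Its shift of 1.05 ± 0.40 was not called (adjusted p = 0.169).

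Set against R821A, R821E shifted let-7a by 1.09 ± 0.23 (adjusted p = 0.00145, limma) and let-7f by 1.18 ± 0.30 (adjusted p = 0.00470) toward 3p, where 40% of hairpins were called, 7.14% toward 3p and 32.9% toward 5p. The let-7f call was lost without R821A replicate 1 (0.77, adjusted p = 0.0880). E5, A5 and ΔPAZ helix against WT gave 0 calls of 6 by limma, with 2, 1 and 2 let-7 names at an unadjusted p under 0.05, where 5.71%, 0% and 0% of hairpins were called (in E5 1.43% toward 3p and 4.29% toward 5p). E5 against A5 gave 0 of 6, 0 of them at an unadjusted p under 0.05, where 0% were called. Let-7a and let-7f nevertheless had positive shifts in all of the mutants against WT. They were 0.57 and 0.83 for E5, 0.43 and 0.90 for A5, 0.68 and 0.72 for ΔPAZ helix. These comparisons share the WT libraries.

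Ratios between members within a library also need no scaling. Let-7i-3p, from chromosome 12, was counted 1.09 and 0.589 times per let-7a-3p count in WT and 0.0714 and 0.0963 times in R821E. The other 4 mutants lay between, at 0.235 to 0.489, without overlap. Let-7d-3p and let-7f-1-3p come from one stretch of chromosome 9. Their ratio was 2.32 and 1.90 in WT, 0.418 and 0.333 in R821E. The values were 0.512 and 1.00 for E5, 1.06 and 1.02 for A5, 1.57 and 0.853 for ΔPAZ helix, and 2.79 and 1.12 for R821A. R821E was below every other library, with no test made. For the pair in the HUWE1 intron, miR-98-3p was counted 0.255 and 0.145 times per let-7f-2-3p count in WT and 0.0714 and 0.0606 times in R821E. These ratios of few counts are descriptions.

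**Figure D4:**
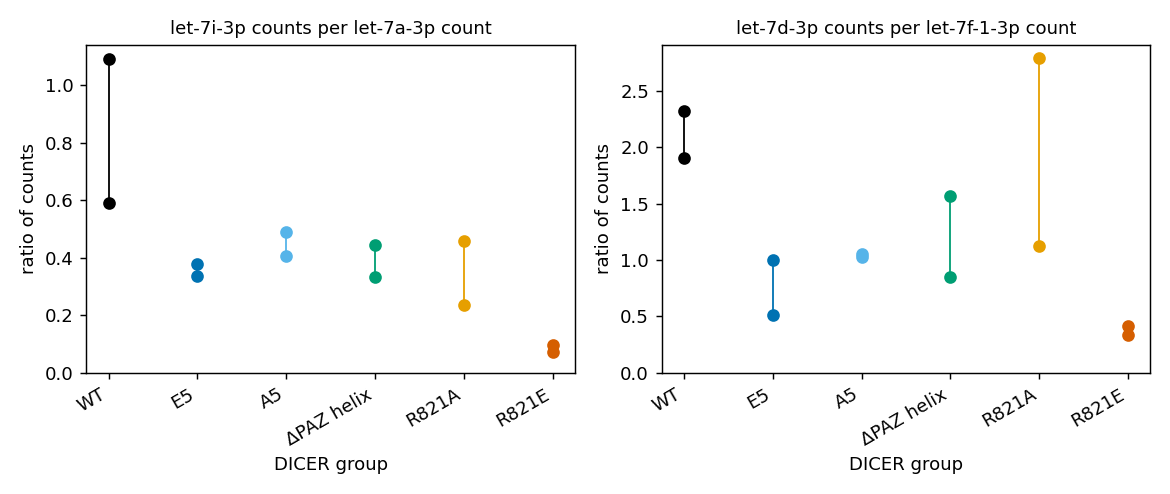
Ratio of let-7i-3p to let-7a-3p counts (left) and of let-7d-3p to let-7f-1-3p counts (right) in each library, by DICER group. Points are libraries and lines join the 2 libraries of a group. Both R821E points are the lowest in each panel, at 0.0714 and 0.0963 on the left and at 0.418 and 0.333 on the right.

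The 3p names also separated counts of some loci that share a 5p name, although let-7a-3p still joins let-7a-1 and let-7a-3, and a 3p share is not the locus's share of the 5p strand. Let-7a-2-3p made up 88 of 2060 let-7a 3p counts over all libraries, 4.27% (95% exact binomial interval 3.44 to 5.24). By group it ranged from 2.42% in E5 to 5.86% in A5. Let-7f-1-3p made up 405 of 1221 let-7f 3p counts, 33.2% (30.5 to 35.9), and 28.4% to 38.0% by group. Its libraries differed most in E5, at 46.6% (35.9 to 57.5) and 16.9% (9.54 to 26.7), intervals that do not overlap. In R821E the let-7a-2-3p share was 3.52% (2.02 to 5.65) and the let-7f-1-3p share 31.7% (25.8 to 38.0), against 5.34% (3.20 to 8.31) and 38.0% (31.2 to 45.1) in WT. The R821E and WT intervals overlap, but they cover counting error only. No test of these 3p shares was made, so no conclusion on a difference is drawn.

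Neighbouring miRNAs on the let-7a-2, let-7e and let-7c transcripts (the miR-99, miR-100 and miR-125 hairpins) were listed for comparison, and 8 of 11 listed entries were tested. In R821E 1 was called higher and 2 lower by edgeR on the TMM scale, where 47.9% of all entries were called. They were miR-100-5p (1.27), beside let-7a-2, and miR-99b-3p (-1.86) and miR-99b-5p (-1.55), beside let-7e. In E5 miR-100-5p was higher (0.51) and miR-99b-5p lower (adjusted p = 0.0138, edgeR), where 9.09% of entries were called. The other mutants gave 0 calls among them against WT on that scale. On the spike-in scale 0 were called higher in any mutant. There 6 of the 8 were called lower in R821E, 2 in E5, 1 in A5, 1 in ΔPAZ helix and 0 in R821A. The shares of all entries called lower there were 60.4%, 27.3%, 14.7%, 13.1% and 4.28%.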

How the data were processed

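Per the labels' protocols, total RNA was extracted with TRIzol and sequenced on a NovaSeq instrument. The authors deposited whole-number counts per entry and library. The submitters' processing notes name cutadapt, BWA, bedtools, hg38 and mm10, with roles and versions not given in the sources used here. Spike-in entries stayed out of library sizes and tests. Counts were fitted in R 4.3.3 with edgeR 4.0.16 (TMM, filterByExpr, robust quasi-likelihood test) over all 12 libraries, and 374 of 1346 entries were tested (99.6% of counts). Strand ratios, log2 of (3p + 0.5)/(5p + 0.5), were tested with limma 3.58.1, with a variance trend on the count of the lesser strand. P-values were Benjamini-Hochberg adjusted over all entries or hairpins, with a threshold of 0.05. The count and strand-ratio tests were checked on simulated data. The planted strand shifts were larger than any let-7 shift here, so that check does not bear on calls near the threshold. Counts of paired libraries differed by more than sampling noise in each group. The spike-in scale divides by summed spike-in counts. Named entries were all members, their 5p strands, listed neighbours, and the 5 entries most correlated with the members' sum. Members and lists were chosen with earlier results of these data known. DESeq2 1.42.0, limma-voom, other scalings and filters, a replicate block and left-out libraries were alternatives.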

Additional observations from a re-analysis of the deposited data

Results flagged for a closer look

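Glutamate and alanine at R821 differed by the test of R821E against R821A itself, for some members as for many other entries. On the TMM scale the log2 difference was 1.36 for let-7a-3p, 1.27 for let-7b-3p and 1.12 for let-7f-2-3p (edgeR), and on the spike-in scale none of the 3 was called. Of all entries, 41.4% were called on the TMM scale in this comparison. For the strand ratio, R821E lay farther toward the 3p strand by 1.09 log2 units for let-7a and 1.18 for let-7f (limma). Of all hairpins, 40% were called, 7.14% toward 3p and 32.9% toward 5p. The calls of let-7b-3p, let-7f-2-3p and the let-7f ratio depended on single libraries, as described above. R821E libraries also had the lowest miRNA counts per spike-in count, whose part in these differences was not tested.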

How the results depend on the processing

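With 2 libraries a group, counts of calls depended on single libraries. In E5 the calls over all entries also became fewer when a library was left out, so such changes do not describe these members alone. Leaving out 1 library gave 3 to 6 called members in R821E (5 in the full analysis), 0 to 1 in E5 (2), 0 to 1 in R821A (1) and 1 to 3 in R821E against R821A (3). For strand ratios it gave 2 to 5 in R821E (4), 0 to 1 in R821A (1) and 1 to 4 in R821E against R821A (2). E5 gave 1 member with DESeq2, with no filter or with the replicate block. A fit of only the 4 libraries compared gave 0 members in E5 and in R821A, 0 strand ratios in R821A and 4 in R821E against R821A. The spike-in scale gave 1 member in A5 and 1 in ΔPAZ helix, let-7i-3p. A mean of at least 100 counts left 2 let-7 names and gave 1 strand ratio in A5, 2 in R821E and 2 in R821A. The R821A strand call went to 0 with a mean of at least 10 counts, with the replicate block, with no trend and no robust step, and with limma's default trend, an alternative chosen after seeing the data. The cause of these changes was not tested. Replicate numbers gave no general sign of pairing. Over 15 pairs of groups, deviations of same-numbered libraries correlated at -0.50 (WT with E5) to 0.37 (WT with R821A), over 0.1 in 1. With 2 libraries a group this check cannot exclude pairing. Of 1449 alternatives for single members and ratios, 1380 stayed on the same side of the threshold, of which 89 changed sign with no call in either. Another 45 lost a call, 24 gained one and 0 called values changed sign. Most of the 1449 belong to results with no call in the full analysis, so the 1380 do not measure how stable the calls were. All 45 losses came from called results. Among these, let-7i-3p in E5 lost its call in 8 of 15 alternatives, and let-7i-3p in R821E in 0 of 15. Depth limits miR-98-3p, let-7a-2-3p and let-7e-3p most, with 97, 88 and 85 counts in all.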

Other observations

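The tested entries whose log2 TMM-scaled level most resembled that of the 10 members' sum over the 12 libraries were miR-6516-3p (Pearson r = 0.96, Spearman rho = 0.91), miR-96-3p (0.93 and 0.89), miR-16-2-3p (0.92 and 0.90), miR-4485-3p (0.92 and 0.70) and miR-374a-5p (0.92 and 0.85), out of 355 ranked. All points share library and scaling factor, and the 2 R821E libraries stand apart. Over the 10 libraries without them, r was 0.92, 0.84, 0.77, 0.77 and 0.77. These values are descriptions, with no p.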
